A study of Mus musculus with 6 samples.

Results

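Imprinted genes are genes of which mainly the maternal or mainly the paternal copy is transcribed in somatic tissue. The set described here is a list of 46 such mouse genes, fixed by name, and 44 of them had a row in the deposited count table of 27998 genes. Rian and Peg13 were not found as rows under those symbols and were not analysed here. The cells were testicular germ cells of male mice at embryonic day 14.5, sorted by flow cytometry for the red fluorescent protein tdTomato and read by single-cell RNA sequencing of the 3' ends of transcripts. Of 6 samples, 3 were from Rb1 cKO mice, a conditional knockout of the retinoblastoma gene, and 3 were from controls labelled wildtype. Both groups were on a mixed C57/B6 and 129 background. The labels name neither the Cre driver nor the deleted part of Rb1, and they do not say whether a sample was 1 animal or a pool.

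In somatic cells, imprinted transcription follows DNA methylation that was laid down in the egg or in the sperm of the parents. Primordial germ cells erase these marks, and male germ cells set a paternal pattern anew during fetal life as prospermatogonia. Many imprinted genes act in fetal and placental growth, while others serve general cell functions. Neither methylation nor the parental copy of origin was measured in these files, so a level below is the sum over both copies. Each transcript molecule carried a unique molecular identifier (UMI), so a level is a count of molecules scaled to a common library total (CPM, counts per 1000000 UMIs) and was not divided by transcript length.

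The 5154 cells kept came to 480, 945 and 1164 cells in cKO samples 1 to 3 and to 781, 430 and 1354 cells in control samples 1 to 3. Summed UMIs ran from 7807571 to 16810763 in cKO samples and from 7598511 to 17323152 in control samples. Rb1, the targeted gene, had 3.46, 3.73 and 3.57 CPM in cKO samples, against 10.3, 8.82 and 6.87 CPM in control samples, so the groups did not overlap. Its log2 fold change was -1.27 ± 0.19 (SE), and its adjusted p in the quasi-likelihood test of edgeR was 0.415. Since the labels do not name the deleted part, it is not known whether the counted 3' end lies in it. The 10 germ cell markers summed to between 9600 and 10500 CPM in cKO samples and to between 9746 and 10562 CPM in control samples. Control sample 3 stood apart in its makeup. Of the germ cell markers, Dazl, Ddx4, Pou5f1, Nanos2 and Mael were lowest there, Dppa5a was highest and the others were neither. Dazl had 898 CPM in control sample 3, against 1185 to 1277 CPM in the other 5. Dppa5a, the largest part of the sum, had 4963 CPM there, against 3817 to 4416 CPM. The authors' cluster 3 held 1.85% of the cells of control sample 3 and 7.04% to 9.42% of those of the other 5 samples. Sertoli cell markers summed to 24.3 CPM in control sample 3, against 5.39 to 10.95 CPM in the other 5. Most of that sum was Aard at 11.4 CPM and Cst9 at 7.56 CPM. Amh, at 4.27 CPM there, was close to the 4.13 CPM of cKO sample 2. Sox9, at 0.693 CPM, was under the 1.32 CPM of control sample 2. A total of 9 barcode sequences were found in more than 1 library.

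Markers of cells that do not belong in the sort give a yardstick for low levels. The 53 markers of 8 other cell types had a median of 0.478 CPM over the 6 samples. The highest of them, the endothelial gene Egfl7, averaged 13.4 CPM, with a UMI in 16.8% of cells. It stood apart from the other endothelial markers, which averaged from 0.304 CPM for Kdr to 5.25 CPM for Plvap. The next highest marker of all, the erythroid gene Hbb-y, averaged 8.12 CPM. The source of the Egfl7 UMIs was not tested, so it is not known whether they came from germ cells or from other cells. Counts of genes above or below Egfl7 therefore compare levels and do not mark a known background. Fshr, Hsd3b1, Insl3, Upk3b and Cdh16 had 0 UMIs. Of the 44 imprinted genes, 17 averaged more than Egfl7 and 27 averaged less. No other cell type was sequenced separately, so free RNA and weak transcription cannot be told apart near this level.

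A gene was called transcribed when it reached 10 CPM in each of the 6 samples. By this rule 17 of the 44 imprinted genes, or 38.6%, were transcribed at embryonic day 14.5, beside 22.3% of all genes in the table (6232 of 27998). By mean level, 4 genes were abundant (from 100 CPM), 16 were moderate (from 10 CPM), 14 were low (from 1 CPM), 9 were at trace level below that, and 1 had 0 UMIs. The 4 abundant genes held 55.5% of the 80262 UMIs of the set. The 3 moderate genes that missed the rule, Ascl2, H19 and Usp29, were each under 10 CPM in a single sample. Egfl7, with 11.3 to 15.8 CPM over the 6 samples, passed the same rule, so passing it does not set a gene apart from that marker. Of the 17 transcribed genes, 15 averaged more than Egfl7, and H13 with 13.2 CPM and Asb4 with 12.7 CPM averaged less. Ascl2 and H19 averaged more than Egfl7 and missed the rule. Of genes known as maternally transcribed, 9 of 20 passed the rule, with a median level of 12.9 CPM. Of those known as paternally transcribed, 8 of 23 passed, with a median of 3.22 CPM. Herc3, listed as a host gene only, did not pass.

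**Figure D1:**
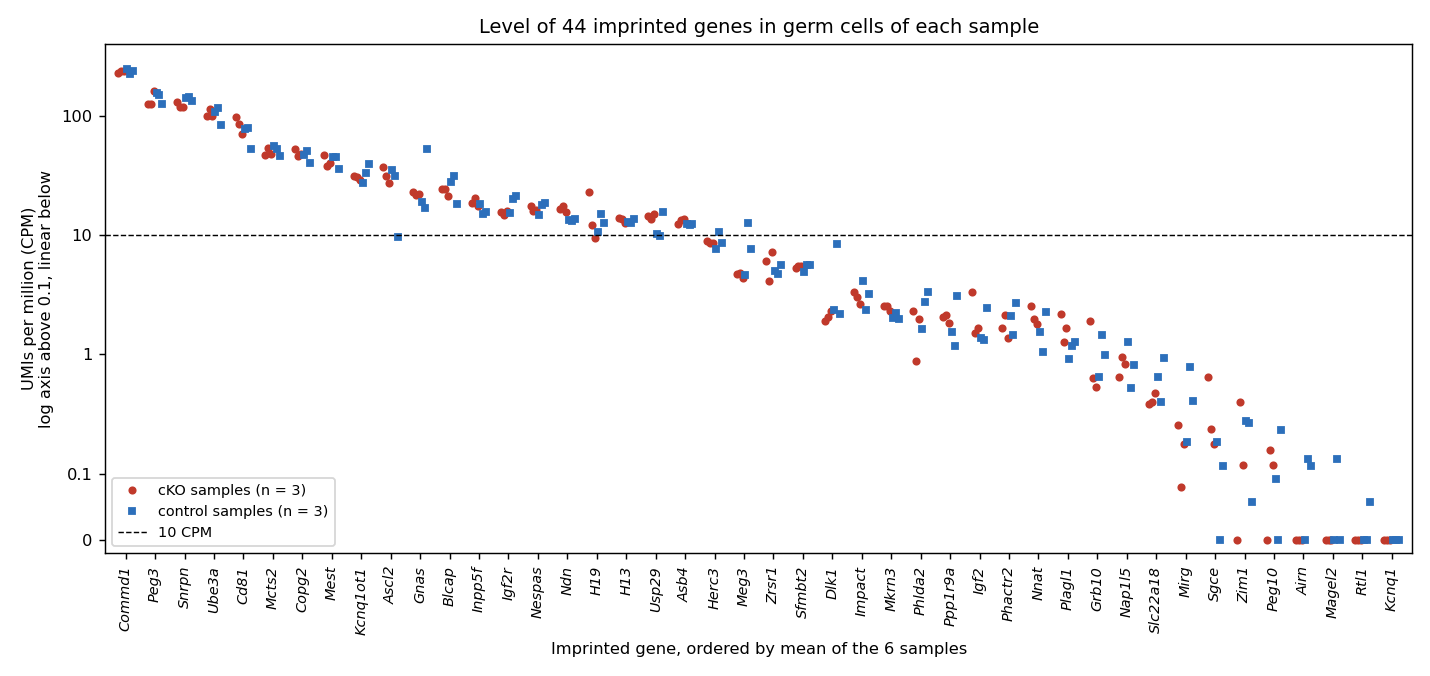
Level of each of the 44 imprinted genes in CPM in the 3 cKO samples (circles) and the 3 control samples (squares), in order of the mean of the 6 samples; the axis is logarithmic above 0.1 CPM and linear below, and the dashed line marks 10 CPM. The levels span from 235.9 CPM for Commd1 to 0 UMIs for Kcnq1, and the symbols of the 2 groups lie together for most genes.

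Commd1, a COMM domain protein and the host gene of the retrocopy Zrsr1 (chromosome 11, 22896136 to 22982382, minus strand, GRCm38), led the set. It had 227.7, 239.1 and 237.6 CPM in cKO samples, against 248.2, 223.1 and 239.4 CPM in control samples. The groups overlapped, and 94.7% of all cells held a UMI of it. Ube3a, a ubiquitin ligase that is imprinted in neurons (chromosome 7, 59228750 to 59311536, plus strand), had 100.5, 114.1 and 100.2 CPM in cKO samples, against 108.2, 117.1 and 83.6 CPM in control samples. Its groups overlapped too. Both genes are known to be imprinted in only some tissues, and both were well inside the rule in every sample.

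The Peg3 domain on chromosome 7 split sharply between neighbours. Peg3, a zinc finger protein transcribed from the paternal copy in somatic tissue (6703892 to 6730431, minus strand), had 126.7, 125.4 and 161.7 CPM in cKO samples, against 156.0, 149.9 and 126.0 CPM in control samples, with overlapping groups. Usp29, a ubiquitin peptidase gene that starts beside Peg3 on the opposite strand (6730578 to 6967219), averaged 14.3 ± 0.68 CPM in cKO samples and 11.9 ± 3.24 CPM in control samples (SD, n = 3 each). Its 9.74 CPM in control sample 2 kept it just outside the rule. Zim1, the maternally transcribed zinc finger gene next to Peg3 (6671269 to 6696450, minus strand), had 13 UMIs in all 6 samples together, a mean of 0.19 CPM. Promoters of these neighbours are shown here because an abundant gene and a trace gene lie side by side. The lines give the 250 bases before the transcription start in RefSeq (GRCm38.p6), 5′ to 3′ on the gene's strand, with each CpG, the site of the methylation that imprints use, in capitals. They cover chr7:6730420-6730669 for Peg3 and chr7:6696433-6696682 for Zim1.
Peg3: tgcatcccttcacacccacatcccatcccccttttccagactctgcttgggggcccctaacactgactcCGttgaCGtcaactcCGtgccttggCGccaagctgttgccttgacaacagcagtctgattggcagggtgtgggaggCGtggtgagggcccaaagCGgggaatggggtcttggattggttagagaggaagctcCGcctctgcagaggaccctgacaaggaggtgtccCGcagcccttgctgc
Zim1: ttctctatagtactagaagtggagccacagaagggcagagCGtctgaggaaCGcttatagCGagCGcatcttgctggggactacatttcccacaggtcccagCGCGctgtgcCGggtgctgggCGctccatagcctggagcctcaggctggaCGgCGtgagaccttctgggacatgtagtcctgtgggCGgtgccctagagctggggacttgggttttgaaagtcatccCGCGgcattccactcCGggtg
The Peg3 stretch holds 8 CpGs and the Zim1 stretch 14, so the gene at trace level has the more CpG-rich stretch of the pair.

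The Prader-Willi domain, also on chromosome 7, had the same kind of split. Snrpn, a protein of the spliceosome's Sm ring and the gene at the imprinting centre of the domain (59982495 to 60140219, minus strand), had 129.9, 117.9 and 119.1 CPM in cKO samples, against 142.0, 144.6 and 132.1 CPM in control samples. Ndn, which encodes the growth suppressor necdin of the MAGE family (62346569 to 62350262, plus strand), had 16.4, 17.5 and 15.5 CPM in cKO samples, against 13.3, 13.2 and 13.7 CPM in control samples. Neither gene's groups overlapped: each cKO sample was below each control for Snrpn and above each control for Ndn. Mkrn3, a makorin RING finger gene, averaged 2.47 ± 0.13 CPM in cKO samples and 2.07 ± 0.15 CPM in control samples (SD, n = 3 each). Magel2, a MAGE family partner of ubiquitin ligases (62377010 to 62381640, plus strand), had a single UMI in 5154 cells. Ndn and Magel2 are intronless neighbours, both transcribed from the paternal copy in somatic tissue, and their promoters follow for comparison, over chr7:62348027-62348276 for Ndn and chr7:62376729-62376978 for Magel2.
Ndn: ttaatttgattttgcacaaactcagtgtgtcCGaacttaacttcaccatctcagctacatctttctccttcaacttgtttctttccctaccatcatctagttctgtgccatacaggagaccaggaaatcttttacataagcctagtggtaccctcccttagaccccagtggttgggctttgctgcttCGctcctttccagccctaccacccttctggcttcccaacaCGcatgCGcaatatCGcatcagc
Magel2: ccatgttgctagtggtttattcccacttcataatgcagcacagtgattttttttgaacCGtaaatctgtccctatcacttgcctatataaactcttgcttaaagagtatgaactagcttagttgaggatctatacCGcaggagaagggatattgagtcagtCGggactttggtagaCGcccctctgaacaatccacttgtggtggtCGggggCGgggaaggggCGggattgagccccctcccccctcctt
Here the counts of CpGs were close, with 5 in the Ndn stretch and 7 in the Magel2 stretch.

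Over the set, a 300-base RefSeq promoter window (250 bases before to 50 after a start) was used for 37 of the genes. H19, Rtl1, Peg10, Sgce, Nespas and Kcnq1 were without a window. Windows on chromosome 18, where Impact lies, were left out for the imprinted genes but not for the values over all windows. Of the 37 genes, 27 had a single start. The 11 transcribed genes among these 27 held a median of 21 CpGs per window, from 9 to 34, and the 16 others held a median of 16, from 2 to 26. Both medians were above the median of 7 over all 32851 windows, and the ranges of the groups overlapped. Genes with more than 1 start did not enter these medians. Those transcribed were Snrpn (2 to 7 CpGs per window), Asb4 (6 to 8), Mest (8 to 17), Commd1 (17 to 18) and Gnas (16 to 40). Those not transcribed were Meg3 (1 to 13), Igf2 (2 to 24), Sfmbt2 (9 to 16), Grb10 (9 to 45) and Ppp1r9a (10 to 48). The letters TGCCGC, a core shared by known recognition sites of the imprint-keeping zinc finger protein Zfp57, were searched on both strands. They were in 2 of the 11, in 4 of the 16 and in 11.6% of all windows.

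Genes of the Kcnq1 domain on distal chromosome 7 ranged from moderate to none. Kcnq1ot1, the paternal untranslated RNA that silences its neighbours in somatic cells (143203458 to 143296549, minus strand), had 31.0, 30.7 and 29.1 CPM in cKO samples, against 27.1, 32.9 and 39.2 CPM in control samples. Its groups overlapped, with control sample 3 the highest. Kcnq1, the potassium channel gene within which it lies (143106362 to 143427042, plus strand), had 0 UMIs in 5154 cells. That count allows a share of up to 0.0582% of cells with a UMI and a level of up to 0.0411 CPM over the 6 samples, where 3 UMIs are taken as the limit and counting error alone is covered. Cd81, a tetraspanin of the cell surface, had 97.2, 85.8 and 71.0 CPM in cKO samples, against 77.9, 79.4 and 52.5 CPM in control samples. Control sample 3 was the lowest for Cd81. Ascl2, a transcription factor of placental trophoblast, had 36.9, 31.3 and 27.4 CPM in cKO samples, against 35.3, 31.3 and 9.64 CPM in control samples. Ascl2 was thus outside the rule through control sample 3 alone, and it passed when that sample was left out. The placental growth regulator Phlda2 averaged 1.71 ± 0.75 CPM in cKO samples and 2.59 ± 0.87 CPM in control samples (SD, n = 3 each). The transporter Slc22a18 had 0.384, 0.397 and 0.476 CPM in cKO samples, against 0.640, 0.395 and 0.924 CPM in control samples. Ascl2 and Kcnq1ot1, like Gnas, H19 and Igf2 below, were picked out after their values were seen.

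Growth genes of the insulin-like growth factor pathway ranged from moderate to trace level. Igf2, the fetal insulin-like growth factor, had 3.33, 1.51 and 1.67 CPM in cKO samples, against 1.37, 1.32 and 2.42 CPM in control samples. H19, the untranslated RNA that shares its enhancers, had 23.2, 12.1 and 9.52 CPM in cKO samples, against 10.7, 15.1 and 12.6 CPM in control samples. H19 was highest in cKO sample 1 and missed the rule through cKO sample 3. Without 13 cells rich in markers of other cell types, described below, H19 averaged 11.4 CPM, under the 13.4 CPM of Egfl7. Igf2r, the receptor that clears Igf2 (chromosome 17, 12682406 to 12769664, minus strand), had 15.6, 14.6 and 16.0 CPM in cKO samples, against 15.4, 20.1 and 21.2 CPM in control samples. Control samples 2 and 3 were above the other 4 samples for Igf2r. Airn, the paternal antisense RNA that silences Igf2r, had 3 UMIs in all, found in control samples 2 and 3. Of these 3 UMIs, 2 were in the 13 marker-rich cells. Grb10, an adaptor that restrains insulin signalling, averaged 1.03 ± 0.77 CPM in cKO samples and 1.02 ± 0.41 CPM in control samples (SD, n = 3 each). Without the 13 marker-rich cells Grb10 had 1.16, 0.637 and 0.536 CPM in cKO samples, against 0.640, 0.530 and 0.984 CPM in control samples, and its mean over the 6 samples, 0.748 CPM, was at trace level. Plagl1, a zinc finger protein of a network of imprinted growth genes, averaged 1.70 ± 0.45 CPM in cKO samples and 1.12 ± 0.19 CPM in control samples. The lowest cKO sample and the highest control sample of Plagl1 were tied at 1.27 CPM to 3 digits. A library with 0 UMIs of a gene allows a level of up to 0.178 to 0.384 CPM in the cKO samples and up to 0.173 to 0.395 CPM in the control samples.

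In the Dlk1-Dio3 domain on chromosome 12, no gene passed the rule. Meg3, the maternal untranslated RNA (109541001 to 109571726, plus strand), had 4.74, 4.76 and 4.34 CPM in cKO samples, against 4.66, 12.5 and 7.62 CPM in control samples. Dlk1, a membrane protein related to Notch ligands (109452823 to 109463336, plus strand), had 1.92, 2.06 and 2.32 CPM in cKO samples, against 2.38, 8.42 and 2.19 CPM in control samples. Control sample 2 was the highest for both. Mirg, a host of microRNAs, had 0.256, 0.079 and 0.178 CPM in cKO samples, against 0.183, 0.790 and 0.404 CPM in control samples. The retrotransposon-derived genes of placenta were near 0 as well, with a single UMI for Rtl1 and 9 UMIs for Peg10 of the Peg10 domain on chromosome 6. Sgce, the sarcoglycan gene beside Peg10, had 15 UMIs, while Asb4, an ankyrin repeat gene of the same domain, averaged 13.1 ± 0.69 CPM in cKO samples and 12.3 ± 0.086 CPM in control samples (SD, n = 3 each).

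Several imprinted genes are retrocopies that sit inside a host gene, and their levels differed from those of the hosts. Mcts2, a retrocopy of the translation factor gene Mcts1, had 47.3, 53.7 and 48.1 CPM in cKO samples, against 55.3, 52.2 and 46.0 CPM in control samples. Its host H13, a signal peptide peptidase, averaged 13.4 ± 0.66 CPM in cKO samples and 12.99 ± 0.61 CPM in control samples (SD, n = 3 each). The parent gene Mcts1 averaged 8.17 ± 0.30 CPM in cKO samples and 8.55 ± 0.74 CPM in control samples. Mcts2 was thus above its host and above its parent gene in both groups. Zrsr1, of the U2 splicing factor family, had 6.02, 4.13 and 7.20 CPM in cKO samples, against 5.03, 4.74 and 5.60 CPM in control samples. Its level stood far under the 235.9 CPM of its host Commd1 and the 261.5 CPM of its paralog Zrsr2, both averaged over the 6 samples. Nap1l5, of the nucleosome assembly protein family, had 0.640, 0.953 and 0.833 CPM in cKO samples, against 1.28, 0.526 and 0.808 CPM in control samples. Its host Herc3, a HECT ubiquitin ligase, had 8.84, 8.57 and 8.51 CPM in cKO samples, against 7.68, 10.7 and 8.60 CPM in control samples. Commd1 and Herc3 were each above their retrocopy in every sample. In GENCODE M21 transcripts, 0 of 451 windows of 50 bases in the last 500 bases of Mcts2, Zrsr1, Nap1l5 or Snrpn were found in Mcts1, Zrsr2, Nap1l1 or Snrpb. These pairs therefore share no such stretch in the part that the assay reads.

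Host and retrocopy overlap in the genome, so reads of a pair may be split or dropped by the counting. H13 and Mcts2 lie on the same strand. The pairs Commd1 and Zrsr1, Herc3 and Nap1l5, Blcap and Nnat, Copg2 and Mest, Gnas and Nespas, Igf2r and Airn, and Kcnq1 and Kcnq1ot1 lie on opposite strands. Whether the counting used strand is not given in the sources used here, so the levels within these 8 pairs are uncertain.

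The moderate class also held Copg2, a subunit of the vesicle coat, with 52.8, 46.1 and 48.0 CPM in cKO samples, against 46.6, 50.7 and 40.4 CPM in control samples. Its neighbour Mest, a hydrolase-fold protein of mesoderm, averaged 41.6 ± 4.44 CPM in cKO samples and 42.0 ± 5.60 CPM in control samples (SD, n = 3 each). Blcap, the host gene of Nnat, averaged 23.3 ± 1.67 CPM in cKO samples and 25.8 ± 6.81 CPM in control samples, and Nnat itself averaged 2.11 ± 0.40 CPM in cKO samples and 1.62 ± 0.60 CPM in control samples. Gnas, the stimulatory G protein subunit, had 23.2, 21.6 and 22.1 CPM in cKO samples, against 18.9, 17.0 and 52.4 CPM in control samples. Control sample 3 alone was high. Nespas, the antisense RNA of the same locus, averaged 16.6 ± 0.79 CPM in cKO samples and 17.1 ± 2.11 CPM in control samples. The inositol phosphatase gene Inpp5f averaged 18.8 ± 1.52 CPM in cKO samples and 16.3 ± 1.76 CPM in control samples. The remaining low genes, Sfmbt2, Impact, Ppp1r9a and Phactr2, averaged between 1.91 and 5.42 CPM over the 6 samples.

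The authors' 5 clusters carry no cell type names, and since all genes went into them, levels between clusters are given without a test. Clusters 0 to 4 held 2210, 1863, 640, 343 and 98 cells. Of the 20 imprinted genes that averaged 10 CPM or more, 18 differed by under 1.5-fold between the highest and the lowest of clusters 0 to 3, once 13 cells described next were left out. The exceptions were Mest at 1.595-fold and H13 at 1.505-fold. Among the 34 genes that averaged 1 CPM or more, Cd81 was the only one more than 2-fold higher in cluster 4 than in each other cluster. Cells of cluster 4 pooled gave 298 CPM of Cd81, against 64.8 to 93.4 CPM in clusters 0 to 3. By sample, cluster 4 had 411.8, 352.1 and 164.3 CPM in cKO samples and 348.1, 371.9 and 282.0 CPM in control samples, from 10 to 27 cells each.

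In cluster 3, 5 of the 34 were more than 2-fold above each of clusters 0 to 2. These were H19 with 43.2 CPM, Meg3 with 24.2 CPM, Dlk1 with 17.6 CPM, Igf2 with 7.77 CPM and Grb10 with 3.66 CPM, all from pooled cells. Cluster 3 also held 11 of the 13 cells with 8 or more UMIs of the markers of other cell types, a limit chosen after seeing the data, where the median cell had 1 such UMI. Without those 13 cells, 0 of the 34 genes were over 2-fold higher in cluster 3, and H19 stood at 13.4 CPM there, Meg3 at 5.004 CPM and Dlk1 at 3.81 CPM. A cell of control sample 2 with 18533 UMIs had 1 UMI of the germ cell markers, where the median cell had 144. This cell held 37 UMIs of H19, 46 of Meg3, 39 of Dlk1 and 34 of Peg3. A cell of cKO sample 1 held 65 UMIs of H19 and 11 of Igf2, beside 168 germ cell marker UMIs. Outside the 13 cells, the summed UMIs of H19, Meg3, Dlk1 and Igf2 reached at most 11 in a cell, and inside them they ran from 0 to 125.

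**Figure D2:**
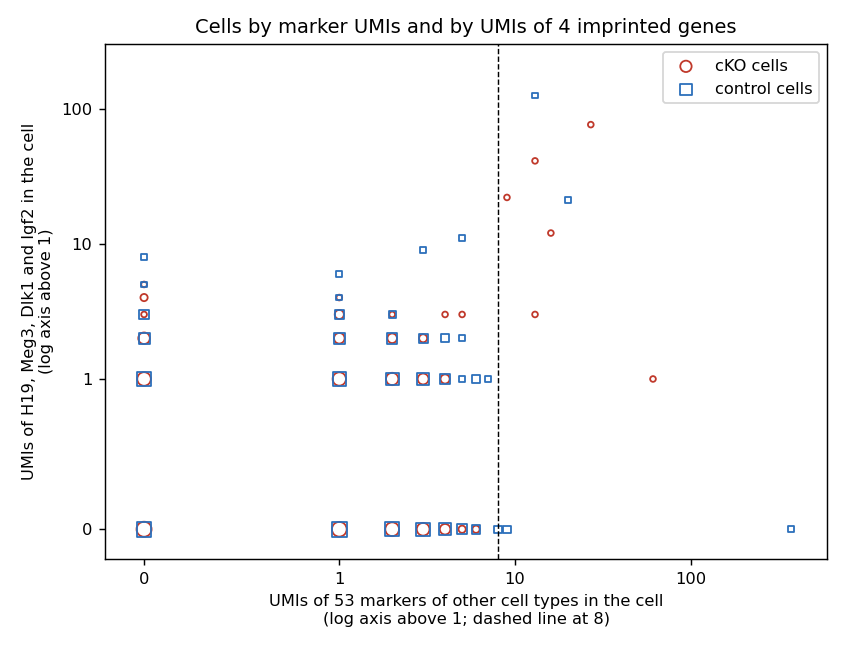
Cells placed by their UMIs of 53 markers of other cell types (horizontal) and by their summed UMIs of H19, Meg3, Dlk1 and Igf2 (vertical), both on axes that are logarithmic above 1, with circles for cKO cells and squares for control cells and symbol size growing with the number of cells at a point. The dashed line is at 8 marker UMIs; no cell left of it holds more than 11 UMIs of the 4 genes, and the 13 cells at or right of it hold up to 125.

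**Figure D3:**
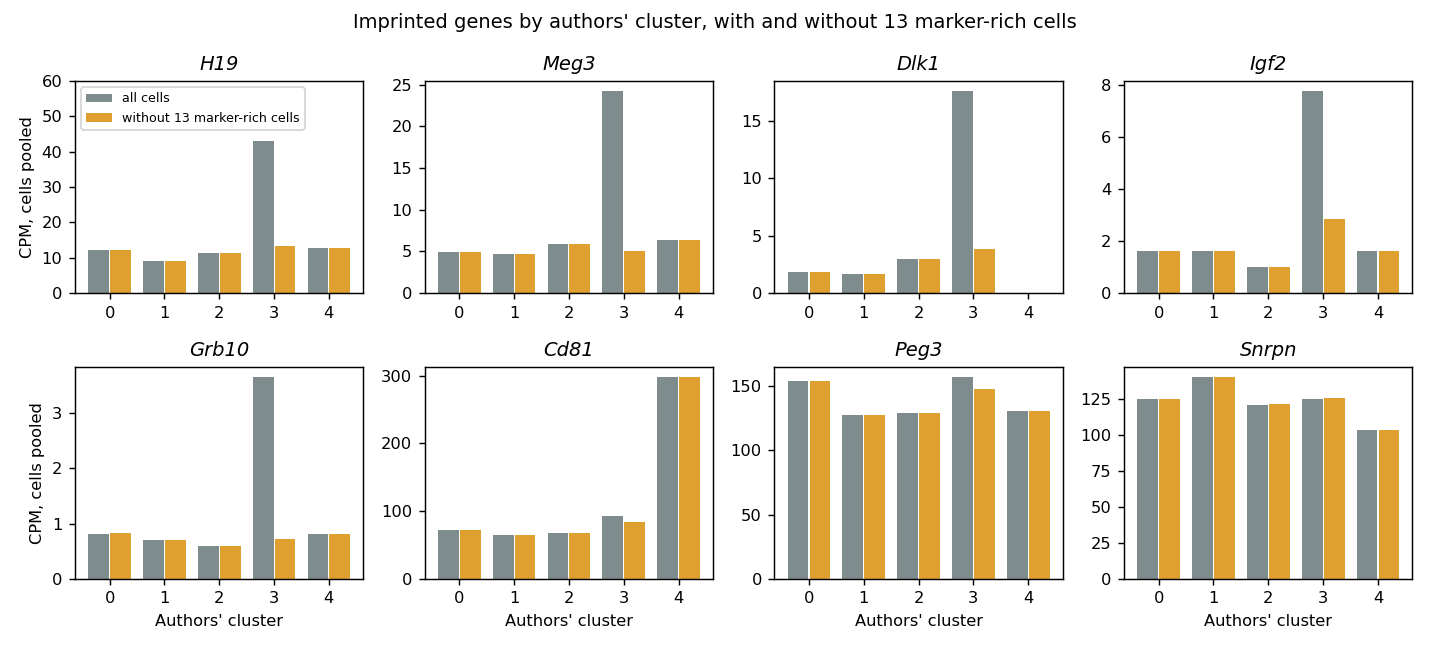
Level in CPM of 8 imprinted genes in the pooled cells of the authors' clusters 0 to 4, with all cells (grey) and without the 13 marker-rich cells (orange); each panel has its own axis from 0. The bars of H19, Meg3, Dlk1, Igf2 and Grb10 in cluster 3 drop without those cells, H19 to 13.4 CPM from pooled cells, while Cd81 in cluster 4 stays at 298 CPM.

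Between the genotypes, none of the imprinted genes passed the test. Of 11540 genes tested in edgeR's quasi-likelihood fit over all cells, 0 passed an adjusted p of 0.05 (0%), and 405 had an unadjusted p under 0.05 (3.51%). DESeq2 called 4 of these genes, or 0.0347%, with Rb1 among the 4 and none of them on the list. Of the 44 imprinted genes, 34 passed the filter on low counts. Among these, 16 had a positive and 18 a negative log2 fold change of cKO over control, with a median of -0.03, beside a median of 0.00 over all genes tested. The 3 genes of the set with an unadjusted p under 0.05 made up 8.82% of the 34. The labels do not state that the replicates are different animals. The p-values therefore weigh the genotype difference against a spread between libraries that may be purely technical.

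Snrpn had the smallest unadjusted p, 0.0134, at a log2 fold change of -0.21 ± 0.07 (SE), and its adjusted p in edgeR was 0.994. It was lower in 3 of 3 cKO samples than in every control, and its fold change stayed between -0.23 and -0.18 under 18 alternatives. Meg3 had a log2 fold change of -0.83 ± 0.31 (SE, unadjusted p = 0.0285), Ndn of 0.28 ± 0.11 (unadjusted p = 0.0371) and Igf2r of -0.31 ± 0.15 (unadjusted p = 0.0579), each with an edgeR adjusted p of 0.994. Dlk1 followed at -0.94 ± 0.53 (SE). Leaving out control sample 2 brought Dlk1 to -0.13 and Meg3 to -0.47. Without the 13 marker-rich cells, Meg3 had 3.61, 4.30 and 3.81 CPM in cKO samples, against 4.66, 6.49 and 6.77 CPM in control samples, with a log2 fold change of -0.63 ± 0.21 (SE) and an edgeR adjusted p of 0.994. In the same cells Dlk1 had 1.80, 1.51 and 1.79 CPM in cKO samples, against 2.38, 3.31 and 1.91 CPM in control samples. Dlk1 had a log2 fold change of -0.54 ± 0.29 (SE) there. Neither gene passed the test. In these cells the groups did not overlap for 5 of 33 imprinted genes tested, Meg3 and Dlk1 among them, or 15.2%, beside 8.66% of all genes tested.

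Summed levels of markers of other cell types stand beside these values. The 10 macrophage markers summed to 1.41 to 4.05 CPM in cKO samples and to 4.48 to 50.7 CPM in control samples. In control sample 2, Pf4 alone gave 47.1 of the 50.7 CPM, and a single cell held 357 UMIs of it. The highest other macrophage marker there was Tyrobp at 1.18 CPM, and C1qa and Mrc1 had 0 CPM. The separation of the groups in this sum thus rests on Pf4. Tyrobp alone also had every cKO sample (0.768, 0.476 and 1.13 CPM) below every control sample (1.46, 1.18 and 3.58 CPM). Mrc1, at most 0.128 CPM, had every cKO sample above, and the groups overlapped for the other macrophage markers. The 8 erythroid markers summed to 6.15 to 25.1 CPM in cKO samples and to 23.2 to 33.4 CPM in control samples. No marker of these 2 lists averaged 10 CPM over the 6 samples, and none had 0 UMIs. The 7 markers of interstitial stroma summed to 1.61 to 3.20 CPM in cKO samples and to 1.55 to 3.06 CPM in control samples. Their part in the values of Meg3 and Dlk1 beyond the 13 cells was not tested.

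Over all cells the groups did not overlap for 4 of the 34 genes, or 11.8%, beside 8.62% of all genes tested. Ndn, Mkrn3 and Plagl1 had all cKO samples above all controls (5.09% of all genes), and Snrpn had them below (3.54% of all genes). Plagl1 counted only through the tie at 1.27 CPM. Scaled by the TMM factors, its lowest cKO sample stood at 1.27 CPM, against 1.32 CPM in the highest control sample, and the count was 3 of the 34 genes, or 8.82%, beside 8.93% of all genes tested, a scaling added after seeing the data. For Gnas and Ascl2 the difference turned on control sample 3. The log2 fold change of Gnas was -0.47 with all samples and 0.31 without that sample, and that of Ascl2 was 0.34 with all samples and -0.07 without it. In that sample the level of Trim28, a corepressor that keeps imprints, was 436 CPM, against 200 to 260 CPM in the other 5, and its part in these differences was not tested. Gnas was highest in control sample 3 in each of clusters 0 to 3, and Ascl2 was lowest there in each of the 5 clusters.

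**Figure D4:**
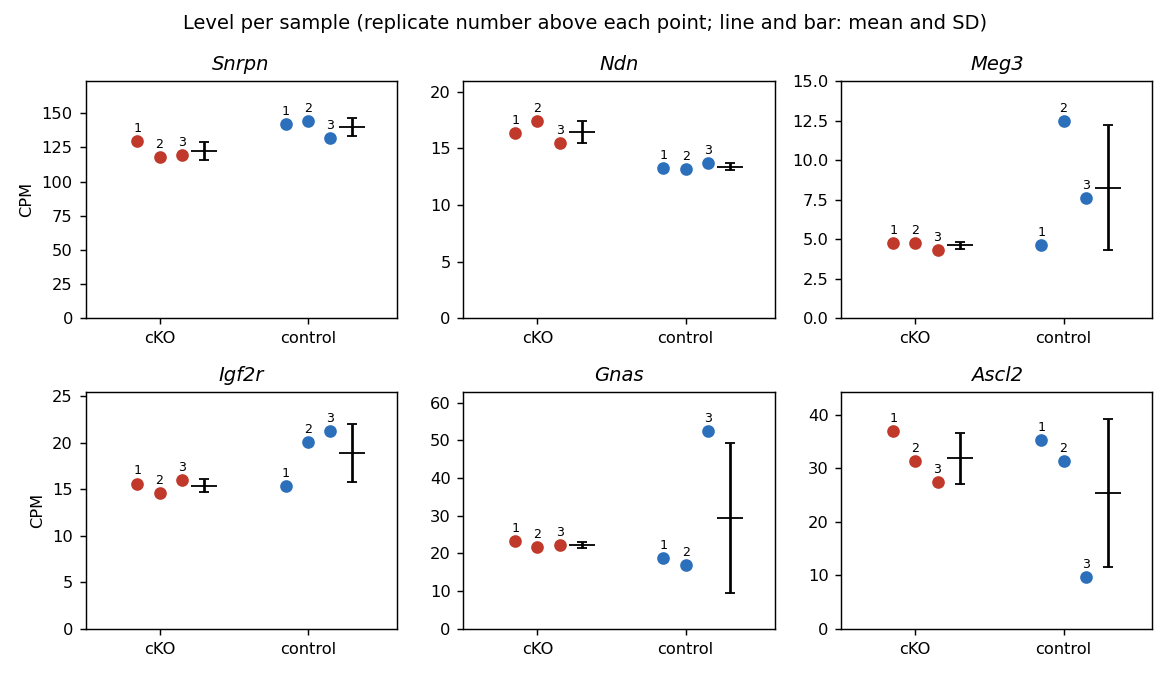
Level in CPM of 6 imprinted genes in each cKO sample (left, red) and each control sample (right, blue), with the replicate number above each point and the group mean and SD as a line and bar (n = 3 each). The groups are separate for Snrpn and Ndn, and control sample 3 lies apart for Gnas at 52.4 CPM and for Ascl2 at 9.64 CPM.

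**Figure D5:**
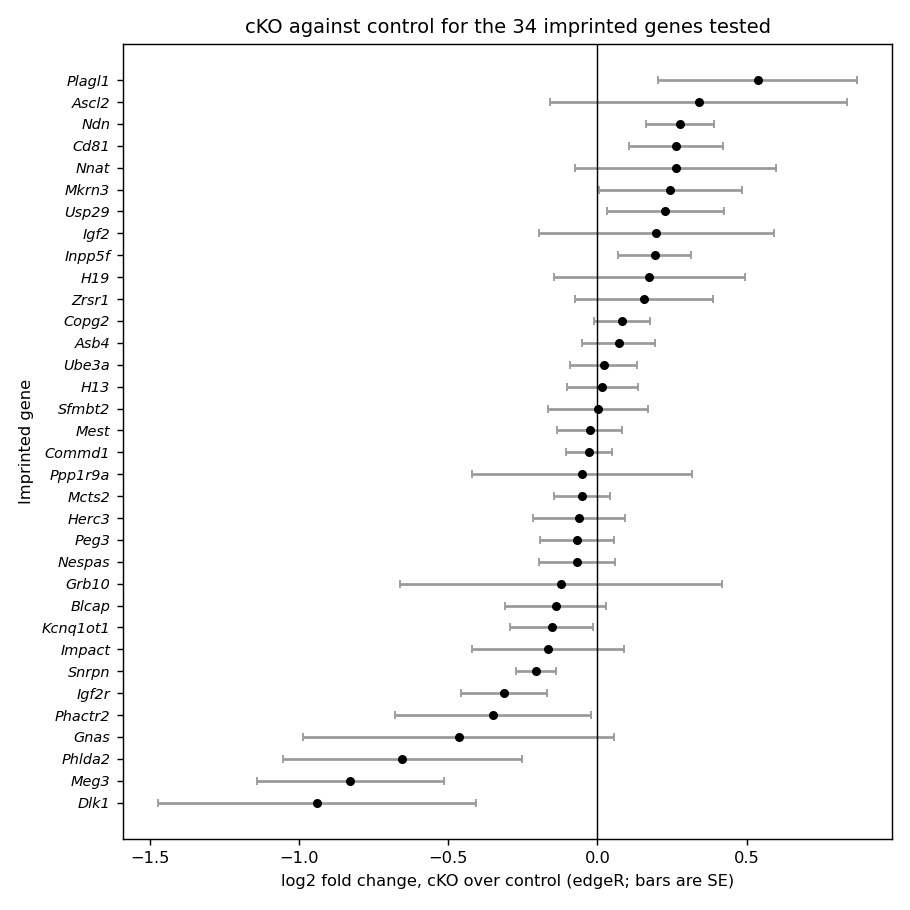
Log2 fold change of cKO over control for the 34 imprinted genes tested in edgeR (points), with SE (bars) and a line at 0. The values run from -0.94 for Dlk1 to 0.54 for Plagl1, and the edgeR adjusted p was above the threshold for each.

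Within clusters 0 to 3, where each sample had at least 20 cells, 30, 27, 22 and 19 imprinted genes were tested and 0 passed in any cluster. The background was 0% of genes in each of these clusters at an adjusted p of 0.05 in edgeR, and DESeq2 called 0 of the imprinted genes as well. At an unadjusted p under 0.05 were Cd81, Meg3 and Igf2r in cluster 0 (3.88% of all genes tested there), Snrpn in cluster 1 (3.37%) and in cluster 2 (4.04%), and Kcnq1ot1 in cluster 3 (3.37%). Snrpn had log2 fold changes of -0.16, -0.20 and -0.33 in clusters 0, 1 and 2. Kcnq1ot1 in cluster 3 had the smallest unadjusted p of these, 0.00809, at -0.79 ± 0.27 (SE) with an edgeR adjusted p of 0.9997. Leaving control sample 1 out of cluster 3 gave edgeR adjusted p-values of 0.00212 for Dlk1 and 0.00100 for Meg3, at log2 fold changes of -2.90 and -2.79, among 3 of 6064 genes called (0.0495%). In that cluster Meg3 had 77.3 CPM in control sample 2 and 128.6 CPM in control sample 3, where 1 marker-rich cell of each held 46 and 15 of the Meg3 UMIs. Whether the genotype difference itself differed between clusters 0 and 1 was tested for 29 imprinted genes, and 0 passed, beside 2 of 10413 genes (0.0192%). At an unadjusted p under 0.05 were 2 of the 29, Ascl2 with 0.00746 and Ppp1r9a with 0.0185, beside 5.03% of all genes.

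Other genes of the imprinting machinery and further imprinted loci were read from lists chosen with earlier results of these data known. Of 13 genes that keep or erase imprints, 12 were tested in edgeR and 0 passed, nor did any have an unadjusted p under 0.05 or a call by DESeq2. Dppa3, which protects maternal marks in the zygote, averaged 2607 ± 235 CPM in cKO samples and 2606 ± 103 CPM in control samples (SD, n = 3 each). The methylcytosine oxidase gene Tet1 averaged 129.1 ± 11.003 CPM in cKO samples and 124.0 ± 7.98 CPM in control samples. The maintenance methyltransferase gene Dnmt1 averaged 121 ± 5.66 CPM in cKO samples and 113 ± 3.41 CPM in control samples, and its partner Uhrf1 averaged 49.6 ± 4.11 CPM in cKO samples and 33.3 ± 11.8 CPM in control samples. Uhrf1 had a log2 fold change of 0.57 and an edgeR adjusted p of 0.994. Control sample 3 was lowest for Uhrf1 at 20.3 CPM, against 43.4 and 36.2 CPM in control samples 1 and 2. Zfp57, the zinc finger protein that recognises imprints, was at 0.76 ± 0.24 CPM in cKO samples and 0.80 ± 0.35 CPM in control samples. Of 39 further imprinted genes in the table, 7 passed the rule for transcription, 21 were tested in edgeR and 0 were called, by DESeq2 too, while 2 had an unadjusted p under 0.05 (Dio3 at a log2 fold change of 0.59 and Slc38a4 at -0.67). The highest by mean level were Nap1l4 with 166 CPM, Jade1 with 68.6 CPM, Tssc4 with 66.6 CPM, the cell cycle inhibitor Cdkn1c with 57.3 CPM and Dhcr7 with 49.0 CPM. The groups did not overlap for 3 of the 21 tested, Tssc4 and Dio3 with cKO higher and Pon2 with cKO lower, and for Uhrf1, with cKO higher, among the 12 tested that keep or erase imprints, where 8.62% of all genes tested did so. Pon2 had 12.2, 12.1 and 13.5 CPM in cKO samples, against 14.1, 13.7 and 13.8 CPM in control samples. Tssc4 had 71.7, 74.1 and 70.0 CPM in cKO samples, against 69.5, 55.1 and 59.5 CPM in control samples. Slc22a2, Tfpi2, Kcnk9 and Htr2a had 0 UMIs.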

How the data were processed

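Single-cell RNA-seq libraries (10x Genomics v2 chemistry) of 3 cKO and 3 control samples were deposited by the authors as whole-number UMI counts per gene and barcode, with a second file giving each barcode's sample and cluster (column RNA_snn_res.0.2, resolution 0.2). Cell Ranger, Seurat 3.0 and the build mm10 are named per the submitters' processing notes, without parameters. The annotation release and the use of strand are not given in the sources used here. How doublets had been treated is not stated. The table had no row that names no gene and 0 unused columns of per-sample values.

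Of 5160 barcodes, 6 with under 500 genes were left out and 5154 were kept, all with under 10% mitochondrial UMIs. Scrublet in scanpy 1.11.5 called 160 doublets (3.10%), which were kept. Counts summed per sample went into edgeR 4.0.16 (R 4.3.3) for its quasi-likelihood test, which was two-sided and robust, with filterByExpr, TMM factors and no covariate. P-values were Benjamini-Hochberg adjusted over all genes tested, at a threshold of 0.05. DESeq2 1.42.0 was an alternative. The step was tested on simulated data. Levels are CPM of the summed counts without TMM factors. UMI totals limit precision, and floors cover counting error only. The other alternatives changed the scaling, the filter, the cell set, the threshold of transcription and the replicates.

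The listed genes, gene lists and tests were chosen with earlier results of these data known. Values per sample are given for the abundant genes, for up to 3 genes of highest mean in each other class, for the 5 genes of smallest unadjusted p and for genes with 0 UMIs, and Gnas, Ascl2, H19, Kcnq1ot1 and Igf2 were added after their values were seen. Positions are from GENCODE M21 (GRCm38), and promoters from RefSeq (GRCm38.p6).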

Additional observations from a re-analysis of the deposited data

How the results depend on the processing

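Over all cells, the count of called genes was 0 with edgeR, 6 without the filter on low counts and 4 with DESeq2, and it ran from 0 to 4 when each sample was left out in turn, with 4 without control sample 3. The cause was not tested. The count of called imprinted genes over all cells was 0 under each of 18 alternatives. The same numbers on samples of both groups do not mark a shared origin in the labels, and deviations of same-numbered samples had correlations of -0.132, 0.231 and 0.197, so the numbers were not taken as pairs. With the replicate block, 0 imprinted genes and 0 genes in all were called. Within clusters, the count ran from 0 to 2 when each sample was left out in turn, the 2 being Dlk1 and Meg3 in cluster 3 without control sample 1. For the interaction it stayed at 0 under each alternative run.

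The count of transcribed genes was 17 in the main setting, 9 at 20 CPM, and 21 both at 5 CPM and with a UMI in 10% of cells as the rule, and it ran from 17 to 18 when each sample was left out. It was 17 under the other alternatives, including removal of the 13 marker-rich cells or of cluster 3, both added after seeing the data. Of 306 fold changes of 17 named genes under alternatives, 291 kept their direction and 15, of 10 genes, did not. The log2 fold change of H19 was -0.012 without cells of 8 or more marker UMIs and -0.027 without cluster 3. The other opposite signs came from leaving out 1 sample, where the log2 fold change ran from -0.085 to 0.011 for Commd1, -0.22 to 0.0049 for Peg3, -0.092 to 0.10 for Ube3a, -0.12 to 0.0056 for Mcts2, -0.16 to 0.049 for Herc3, -0.081 to 0.35 for Zrsr1, -0.73 to 0.31 for Gnas, -0.073 to 0.69 for Ascl2, -0.24 to 0.41 for H19 and -0.28 to 0.026 for Kcnq1ot1. The lowest adjusted p of any of these was 0.533. The count of tested imprinted genes whose groups did not overlap was 4 in CPM, 3 with TMM-scaled CPM and 5 without the marker-rich cells, both added after seeing the data. The 9 genes at trace level and Kcnq1 did not pass the filter on low counts, so differences in them were not detectable at this depth.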
